A study of Yarrowia lipolytica with 35 samples.

Results

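CEX1 (YALI0D20196g) is the citrate exporter gene of Yarrowia lipolytica, and it is 1 of the 7132 genes in the deposited count table, found there by its locus tag. The table gives it a length of 2022 bases, and RefSeq lists it as protein coding. Cultures of strain DSM-3286 and of strain DSM-21175 were kept in bioreactors that offered either glycerol or glucose and nothing else as carbon, and their RNA gave 35 sequenced libraries. Growing cells were harvested at 8 h (glycerol) or 12 h (glucose), always at pH 5.5. Stationary cells, limited for nitrogen, were harvested at 32 h from cultures held at pH 5.5 or pH 3.5. Strain, carbon, phase and pH make 12 groups of 3 libraries, biological triplicates per the labels, but the stationary DSM-3286 group with glucose at pH 5.5 has only 2 (replicates 1 and 3). The labels give no genotype beyond the strain name and no growth-phase sample at pH 3.5.

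Citrate is made in the mitochondrial matrix from acetyl-CoA and oxaloacetate, crosses the inner mitochondrial membrane through carrier proteins, and in the cytosol is either cleaved for lipid synthesis, passed on to isocitrate, or exported. Cex1 is a plasma membrane carrier of the major facilitator superfamily, related to CexA of Aspergillus niger, and it carries citrate out of the cell. Y. lipolytica is known for secreting citrate when nitrogen runs out while carbon is still present, and for shifting towards polyols such as erythritol in acid medium.

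Levels are given as CPM, the read count of a gene over the library total in megareads, with totals scaled by TMM factors, and changes as log2 fold changes with SE. A gene counts as called when its adjusted p was under 0.05 (quasi-likelihood test of edgeR, Benjamini-Hochberg over 6537 genes). Library totals were 6704058 to 25702157 reads, with a median of 12546196. Of these libraries, 5 stand apart from their group by a lower correlation with it, all from DSM-21175: from growing cells glucose replicate 3 and glycerol replicate 2, from stationary cells at pH 5.5 glucose and glycerol replicate 3, and at pH 3.5 glycerol replicate 3. Comparisons that use them were also fitted without them. The rule sets 1 library against the other 2, so it cannot flag a group whose 3 libraries all differ, and the group of 2 was not assessed. The stationary DSM-3286 libraries on glycerol at pH 5.5 correlated at 0.9787 to 0.9792. The higher correlation of the 5 flagged libraries with their group ran from 0.9709 to 0.984.

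CEX1 spanned a 1450-fold range between its lowest and highest group means. On the log2 CPM scale the group means spanned 10.47, the 48th widest among the 6295 coding genes tested, whose median span was 1.89. Growing cells held little CEX1 RNA. These are bulk samples, so a smaller share of cells expressing a gene and less RNA per cell cannot be told apart. In DSM-3286 on glucose it was at 8.86, 10.6 and 8.34 CPM in replicates 1, 2 and 3, from 107 to 123 reads a library. In DSM-3286 on glycerol it was at 12.9, 9.09 and 11.1 CPM, from 75 to 234 reads. The DSM-21175 libraries lay in a similar range, with 6.39, 7.52 and 6.6 CPM on glucose and 8.91, 11.6 and 9.95 CPM on glycerol. Per effective gene length, 9.37 to 13.7% of the coding genes tested stood below CEX1 in the 4 growth-phase groups. Coding genes with too few reads to be tested are not counted in these shares.

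In stationary phase at pH 5.5 the same gene was among the most abundant transcripts of DSM-3286. It was at 9930, 9890 and 9890 CPM on glycerol and at 7270 and 7280 CPM on glucose, from 63988 to 109194 reads a library. Ranked per effective length, CEX1 was 26th of the 6295 coding genes tested on glycerol and 25th on glucose. DSM-21175 reached far lower levels under the same conditions: 406, 368 and 318 CPM on glycerol, and 229, 213 and 83.6 CPM on glucose. The last value is from replicate 3, one of the libraries that stand apart, and the lowest of its group. Per length, CEX1 ranked 1059th on glycerol and 2049th on glucose in that strain.

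At pH 3.5 the stationary cells held much less CEX1 RNA. In DSM-3286 it was at 402, 487 and 361 CPM on glycerol and at 612, 793 and 329 CPM on glucose, so that the glucose replicates spread more widely than the glycerol ones. In DSM-21175 it was at 54, 66.6 and 52.4 CPM on glycerol and at 41.6, 43.8 and 39.4 CPM on glucose. These values were still above every growth-phase library of the same strain.

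**Figure D1:**
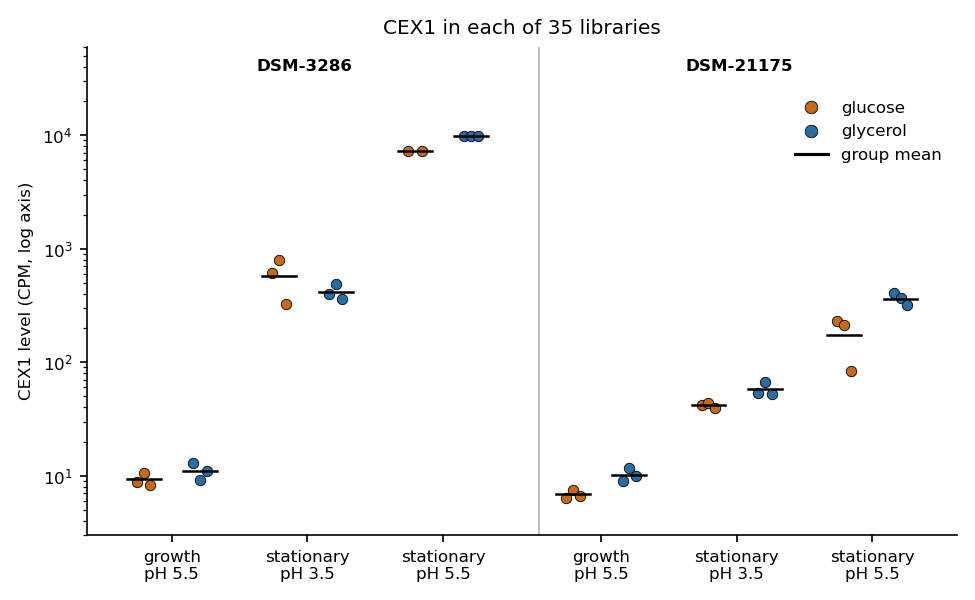
CEX1 level in CPM on a log axis for each of the 35 libraries, by strain, phase and pH, with glucose in orange and glycerol in blue; each point is 1 library and each bar the mean of its group. Growth-phase libraries lie between 6.39 and 12.9 CPM in both strains, and the DSM-3286 stationary libraries at pH 5.5 lie between 7270 and 9930 CPM.

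Ordered by mean level, the 12 groups formed steps. The 4 growth-phase groups came lowest, at 6.84 ± 0.604 CPM (SD, n = 3) in DSM-21175 on glucose, 9.28 ± 1.2 CPM in DSM-3286 on glucose, 10.2 ± 1.35 CPM in DSM-21175 on glycerol and 11.1 ± 1.92 CPM in DSM-3286 on glycerol (SD, n = 3 each). The upper 3 of these overlapped each with its neighbour. A 3.75-fold step led to DSM-21175 at pH 3.5, with 41.6 ± 2.18 CPM on glucose and 57.7 ± 7.76 CPM on glycerol, whose replicates did not overlap. Next came DSM-21175 at pH 5.5 on glucose, 175 ± 79.6 CPM. The next 3 groups, DSM-21175 at pH 5.5 on glycerol (364 ± 43.8 CPM), DSM-3286 at pH 3.5 on glycerol (417 ± 64.2 CPM) and DSM-3286 at pH 3.5 on glucose (578 ± 234 CPM), overlapped each with its neighbour. A 12.6-fold step separated them from DSM-3286 at pH 5.5, at 7280 ± 11.5 CPM on glucose (SD, n = 2) and 9900 ± 21.4 CPM on glycerol (SD, n = 3).

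Stationary cells held far more CEX1 RNA than growing cells in both strains. At pH 5.5 it rose 892-fold in DSM-3286 on glycerol (log2 fold change 9.80 ± 0.37, 95% interval 528 to 1510-fold, edgeR with Benjamini-Hochberg, adjusted p = 6.66e-19). On glucose it rose 784-fold (9.62 ± 0.37, 462 to 1330-fold, edgeR, Benjamini-Hochberg adjusted p = 4.93e-18). In DSM-21175 the rise was 35.7-fold on glycerol (5.16 ± 0.31, 23.1 to 55.4-fold, edgeR, Benjamini-Hochberg adjusted p = 1.49e-14) and 25.5-fold on glucose (4.67 ± 0.30, 16.6 to 39.4-fold, adjusted p = 1.58e-13). In all 4 comparisons every stationary library lay above every growth-phase library. A call alone says little here, since 79.6 and 71.9% of the genes tested were called in DSM-3286 on glycerol and glucose and 76.4 and 72.3% in DSM-21175. Genes called higher made up 40.2, 36.8, 37.3 and 37.1%, in the same order. By size, CEX1 had the 40th and the 4th largest rise among 6537 genes in DSM-3286 and the 137th and the 101st largest in DSM-21175. Without the libraries that stand apart the DSM-21175 values were 5.33 on glycerol and 4.94 on glucose. Phase and hour of sampling cannot be told apart in this comparison.

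The rise differed between the strains by more than the spread between replicates. It was 25-fold smaller in DSM-21175 than in DSM-3286 on glycerol (difference of log2 fold changes -4.64 ± 0.39, edgeR, Benjamini-Hochberg adjusted p = 2.49e-10), where 51.1% of genes differed in either direction. On glucose it was 30.7-fold smaller (-4.94 ± 0.41, adjusted p = 5.3e-10, edgeR with Benjamini-Hochberg), against 42% of genes. These differences were -4.52 and -4.69 without the libraries that stand apart. Whether the rise differed between the carbon sources was not resolved. The difference of glycerol and glucose was 0.19 ± 0.40 in DSM-3286 (95% interval -0.63 to 1.0) and 0.49 ± 0.39 in DSM-21175 (-0.31 to 1.28), with adjusted p = 0.736 and 0.372 (edgeR, Benjamini-Hochberg). Of all genes, 44.7 and 30.1% were called in these tests. The values were 0.22 and 0.39 without the libraries that stand apart, and neither passed.

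CEX1 was lower in acid medium in both strains and on both carbon sources. At 32 h it was 23.8-fold lower at pH 3.5 than at pH 5.5 in DSM-3286 on glycerol (log2 fold change -4.57 ± 0.29, 95% interval 15.7 to 35.9-fold, edgeR with Benjamini-Hochberg, adjusted p = 4.22e-13). On glucose it was 12.6-fold lower (-3.65 ± 0.29, 8.34 to 19-fold, adjusted p = 1.92e-10, edgeR with Benjamini-Hochberg). In DSM-21175 it fell 6.32-fold on glycerol (-2.66 ± 0.27, 4.31 to 9.25-fold, edgeR, Benjamini-Hochberg adjusted p = 3.95e-08). On glucose in that strain it fell 4.2-fold (-2.07 ± 0.26, 2.89 to 6.11-fold, edgeR, Benjamini-Hochberg adjusted p = 2.39e-06). The replicates at pH 3.5 and pH 5.5 did not overlap in any of these 4 comparisons. Of all genes tested, 66.2, 46.3, 28.7 and 27.3% were called in the same order, and 34.3, 23.4, 13.4 and 13.9% were called lower. Among genes lower at pH 3.5, CEX1 had the 96th, 58th, 58th and 87th largest fall. Leaving out the DSM-21175 libraries that stand apart gave a log2 fold change of -2.68 on glycerol and -2.40 on glucose in that strain.

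The fall with pH was steeper in DSM-3286 than in DSM-21175. The difference between the strains was 1.91 ± 0.36 on the log2 scale on glycerol (edgeR, Benjamini-Hochberg adjusted p = 0.000139), where 41.6% of genes differed. On glucose it was 1.58 ± 0.38 (adjusted p = 0.00474, edgeR with Benjamini-Hochberg), against 16.3% of genes. Both passed without the libraries that stand apart, at 1.90 and 1.26. The glucose value was no longer called when only the compared libraries were fitted (1.61, adjusted p = 0.0873, edgeR with Benjamini-Hochberg). Between carbon sources, the fall in DSM-3286 differed by -0.92 ± 0.38 (edgeR, Benjamini-Hochberg adjusted p = 0.0709), and without replicate 3 on glucose at pH 3.5 by -1.20 (adjusted p = 0.0111). In DSM-21175 it differed by -0.59 ± 0.36 (95% interval -1.32 to 0.15, edgeR, Benjamini-Hochberg adjusted p = 0.497). Of all genes, 28 and 0.887% were called in these tests. Without the libraries that stand apart the shares were 42.2 and 18%, and the values for CEX1 were -0.92, which passed (edgeR, Benjamini-Hochberg adjusted p = 0.0111), and -0.27, which did not (adjusted p = 0.602).

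Cells at pH 3.5 in stationary phase nevertheless held more CEX1 RNA than growing cells at pH 5.5, a comparison added after the values were seen and in which phase and pH both differ. The fold change was 37.5 on glycerol and 62.3 on glucose in DSM-3286, and 5.66 and 6.07 in DSM-21175. On the log2 scale these were 5.23 ± 0.31, 5.96 ± 0.32, 2.50 ± 0.28 and 2.60 ± 0.29 (edgeR, Benjamini-Hochberg adjusted p = 1.16e-14, 3.38e-15, 7.15e-09 and 5.89e-09). The DSM-21175 values were 2.66 and 2.54 without the libraries that stand apart. Between 71.3 and 79.1% of all genes were called in these 4 comparisons.

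No difference of CEX1 between the strains passed the test in growing cells. DSM-21175 stood at -0.12 ± 0.29 against DSM-3286 on glycerol (log2, 95% interval -0.71 to 0.46, edgeR, Benjamini-Hochberg adjusted p = 0.745), with overlapping replicates. On glucose it stood at -0.44 ± 0.29 (-1.03 to 0.16, adjusted p = 0.208, edgeR with Benjamini-Hochberg), with replicates that did not overlap. Without the libraries that stand apart the values were -0.21 and -0.39. In those comparisons 48.9 and 56.6% of genes were called. In stationary phase at pH 5.5 CEX1 was 27.2-fold lower in DSM-21175 on glycerol (-4.76 ± 0.29, 17.9 to 41.2-fold, edgeR, Benjamini-Hochberg adjusted p = 1.22e-13). On glucose it was 41.6-fold lower (-5.38 ± 0.31, 26.7 to 64.6-fold, edgeR, Benjamini-Hochberg adjusted p = 6.48e-14). At pH 3.5 the gap was 7.22-fold on glycerol (-2.85 ± 0.27, edgeR, Benjamini-Hochberg adjusted p = 7.02e-10) and 13.9-fold on glucose (-3.79 ± 0.28, adjusted p = 8.09e-12). Of all genes, 69.7 and 62.8% were called at pH 5.5 and 64 and 61.3% at pH 3.5, on glycerol and glucose. Without the libraries that stand apart the log2 values were -4.73 and -5.09 at pH 5.5 and -2.83 and -3.83 at pH 3.5. Among genes lower in DSM-21175, CEX1 ranked 146th and 61st at pH 5.5 and 201st and 116th at pH 3.5.

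Carbon source gave few called differences of CEX1. Only 1 of the 6 comparisons of glycerol with glucose was called, in DSM-21175 in stationary phase at pH 5.5, where CEX1 was 2.08-fold higher on glycerol (1.06 ± 0.25, 95% interval 1.45 to 2.99-fold, edgeR, Benjamini-Hochberg adjusted p = 0.00581). Of all genes, 11.9% were called there. The glucose group includes replicate 3 at 83.6 CPM, and without that library the change was 0.71 and passed (edgeR, Benjamini-Hochberg adjusted p = 0.0257). Without the 5 libraries that stand apart it was 0.80 (adjusted p = 0.017, edgeR with Benjamini-Hochberg). The call was lost when only these 6 libraries were fitted (1.05, edgeR, Benjamini-Hochberg adjusted p = 0.264).

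In the other 5 comparisons of carbon source the log2 fold change lay between -0.47 and 0.57. In DSM-3286 it was 0.26 ± 0.28 in growth phase, 0.44 ± 0.28 in stationary phase at pH 5.5 and -0.47 ± 0.25 at pH 3.5 (edgeR, Benjamini-Hochberg adjusted p = 0.458, 0.232 and 0.133). In DSM-21175 it was 0.57 ± 0.29 in growth phase and 0.47 ± 0.26 at pH 3.5 (adjusted p = 0.114 and 0.225, edgeR with Benjamini-Hochberg). In both of these DSM-21175 comparisons every glycerol library lay above every glucose library. The replicates of DSM-3286 overlapped in growth phase and at pH 3.5 and did not in stationary phase at pH 5.5. In DSM-21175 the values were 0.41 and 0.53 without the libraries that stand apart. The share of genes called in these 5 was 55.3, 35.8, 42.7, 46.6 and 15.7%, in the same order. In growth phase the carbon sources were sampled at different hours, so carbon source and hour cannot be told apart.

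For DSM-3286 in stationary phase at pH 5.5 the outcome of the carbon source test depended on how the spread was estimated. Its glycerol libraries, 9890 to 9930 CPM, lay above its glucose libraries, 7270 to 7280 CPM, with almost no spread within either group. In the fit of all 35 libraries, CEX1 has a biological coefficient of variation of 22.2%, and the 1.36-fold difference did not pass (0.91 to 2.04-fold). In a fit of only these 5 libraries it passed (0.44, edgeR, Benjamini-Hochberg adjusted p = 4.84e-06). At pH 3.5 in the same strain, leaving out glucose replicate 3 at 329 CPM made the difference -0.75 (edgeR, Benjamini-Hochberg adjusted p = 0.014), lower on glycerol. Leaving out the 5 DSM-21175 libraries gave -0.48 (edgeR, Benjamini-Hochberg adjusted p = 0.035). The difference between strains in the effect of carbon source was 0.31 ± 0.41 in growth phase and 0.61 ± 0.37 in stationary phase at pH 5.5 (edgeR, Benjamini-Hochberg adjusted p = 0.727 and 0.263). At pH 3.5 it was 0.94 ± 0.36 (adjusted p = 0.0472, edgeR with Benjamini-Hochberg). Over all genes 9.82, 19.3 and 30.4% were called in these 3 tests. Without the libraries that stand apart the values were 0.18, 0.36 and 1.0, and the shares 18, 29.8 and 47.3%. That call was lost without any 1 of 9 of the 12 libraries (0.64 without DSM-3286 glucose replicate 2, adjusted p = 0.178).

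**Figure D2:**
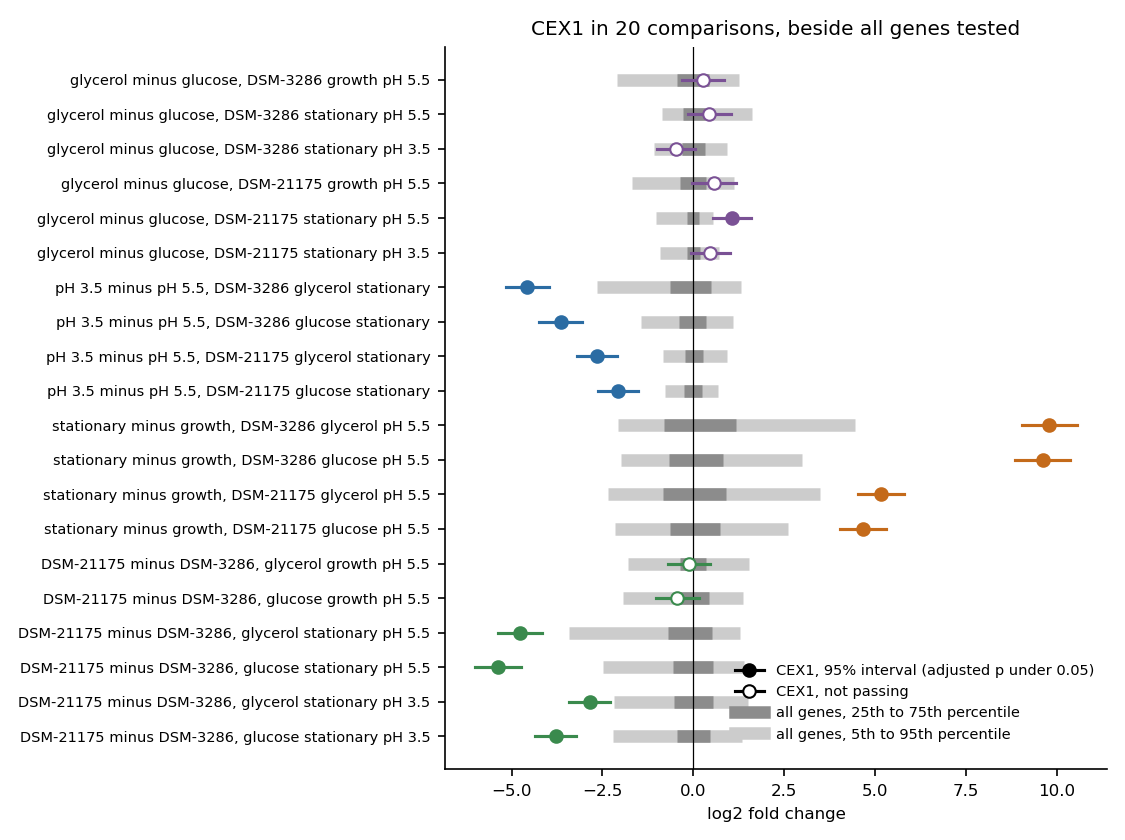
Log2 fold change of CEX1 with its 95% interval in 20 comparisons, coloured by the factor compared, with filled points for an adjusted p under 0.05 and open points otherwise; grey bars show the 5th to 95th and 25th to 75th percentiles over all 6537 genes tested. CEX1 lies outside the 5th to 95th percentiles in all 4 phase comparisons, all 4 pH comparisons and the 4 stationary strain comparisons. It also does so for glycerol minus glucose in stationary DSM-21175 at pH 5.5, at 1.06 against a 95th percentile of 0.53.

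CEX1 was set beside a list of 15 locus tags drawn up from memory as genes of citrate formation, mitochondrial citrate transport, and citrate use. The files and the RefSeq table annotate none of these tags, so the make-up of the list is unverified and its members are given here without names or roles. On entry into stationary phase most of them fell. In DSM-3286, 12 fell and 1 rose on glycerol, and 10 fell and 1 rose on glucose. In DSM-21175, 13 fell and 2 rose on glycerol, and 12 fell and 1 rose on glucose. Over all genes, 39.5, 35.1, 39.1 and 35.3% fell, in the same order. The median log2 fold changes of the list were -0.82, -0.54, -1.33 and -0.89, against 0.04, 0.03, -0.03 and 0.03 over all genes. With RLE scaling the counts of falling genes were 11, 9, 13 and 12, and the median over all genes in DSM-3286 on glycerol moved from 0.04 to 0.14.

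The listed gene that rose in all 4 phase comparisons was YALI0C24101g. Its log2 fold change was 1.85 ± 0.18 and 1.0 ± 0.19 in DSM-3286 on glycerol and glucose, and 1.15 ± 0.18 and 0.43 ± 0.18 in DSM-21175 (edgeR, Benjamini-Hochberg adjusted p = 1.95e-10, 4.24e-05, 1.09e-06 and 0.0297). YALI0E11495g rose in DSM-21175 on glycerol, at 0.43 ± 0.12, and did not pass in the other 3 comparisons (0.08, 0.08 and 0.21). YALI0F26323g fell in all 4, at -3.29 and -2.40 in DSM-3286 on glycerol and glucose and -2.34 and -1.79 in DSM-21175. YALI0E00638g also fell in all 4, at -1.05 and -0.58 in DSM-3286 and -5.47 and -4.62 in DSM-21175. The value of -5.47 rests on a low stationary level, 2.6 ± 1.02 CPM (SD, n = 3). These 4 genes were picked from the list after their values were seen.

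Levels per kilobase of effective length set CEX1 beside 2 of these genes. In growing cells CEX1 was the lowest of the 3 in every group, at 3.38 to 5.47 CPM per kilobase, against 234 to 736 for YALI0C24101g and 175 to 326 for YALI0F26323g. In stationary DSM-3286 cells at pH 5.5 CEX1 was the highest of the 3, at 4900 and 3600 CPM per kilobase on glycerol and glucose, against 1410 and 1470 for YALI0C24101g and 29.1 and 33.1 for YALI0F26323g. Another listed gene, YALI0B10736g, was at 3230 and 2100 there. In stationary DSM-21175 cells at pH 5.5 CEX1 stood between the 2 picked genes, at 180 and 86.6, against 521 and 484 for YALI0C24101g and 64.6 and 61.4 for YALI0F26323g.

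At pH 3.5 the list held both rises and falls. In DSM-3286, 7 of the 15 rose and 3 fell on glycerol, and 3 rose and 2 fell on glucose. In DSM-21175, 8 rose and 0 fell on glycerol, and 5 rose and 1 fell on glucose. Over all genes 31.9, 22.9, 15.3 and 13.4% rose, in the same order, and 34.3, 23.4, 13.4 and 13.9% fell. With 15 genes, the 3 rises and 2 falls in DSM-3286 on glucose are close to those shares, as is the 1 fall in DSM-21175 on glucose. The list's median was 0.23, 0.03, 0.31 and 0.18, against -0.02, -0.01, 0.01 and 0.00 over all genes. YALI0C24101g fell in DSM-3286, at -1.01 ± 0.18 on glycerol and -0.92 ± 0.19 on glucose (edgeR, Benjamini-Hochberg adjusted p = 1.42e-05 and 3e-04), and stood at 0.05 and -0.04 in DSM-21175 without passing. YALI0E00638g rose on glycerol in both strains, at 2.91 ± 0.27 and 1.94 ± 0.32, in DSM-21175 from only 2.6 CPM at pH 5.5. The pH and phase comparisons share the stationary libraries at pH 5.5.

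Between the strains in stationary phase, 10 and 11 of the 15 genes were lower in DSM-21175 at pH 5.5 on glycerol and glucose, and 10 and 10 at pH 3.5, while 2, 1, 2 and 1 were higher. Over all genes 34.5, 30.5, 30.8 and 28.1% were lower and 35.3, 32.3, 33.2 and 33.2% higher. The list's medians were -0.46, -0.94, -0.43 and -0.72.

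The genes next to CEX1 changed less than it on entry into stationary phase. Its 3 neighbours on each side by locus tag were YALI0D20130g, YALI0D20152g and YALI0D20174g, and YALI0D20218g, YALI0D20240g and YALI0D20262g. In the RefSeq table of strain CLIB89, joined through gene IDs, the first 3 also precede CEX1 directly and 1 further gene lies between CEX1 and YALI0D20218g. On entry into stationary phase the adjacent gene YALI0D20174g changed by 0.43 in DSM-3286 on glycerol and by -0.37 in DSM-21175 on glucose, and did not pass in the other pair of comparisons. YALI0D20218g did not pass in any of the 4, with values from -0.10 to 0.17. YALI0D20240g rose in all 4, by 0.47 to 0.99, and at pH 3.5 it fell in 3 of 4 comparisons, with values from -0.98 to -0.53. At pH 3.5 YALI0D20174g also fell in 3 of 4, with values from -0.61 to -0.44, and YALI0D20218g fell in DSM-21175 on both carbon sources (-0.53 and -0.46). YALI0D20152g fell on entry into stationary phase in all 4, with values from -3.01 to -0.61, and at pH 3.5 it rose in DSM-3286 on glucose (1.51) and DSM-21175 on glycerol (1.07) and fell in DSM-3286 on glycerol (-0.52). YALI0D20262g rose in stationary phase in DSM-3286, at 1.37 on glycerol and 0.62 on glucose, and fell in DSM-21175, at -0.65 and -0.40. At pH 3.5 it rose in DSM-3286 on glucose (1.09) and DSM-21175 on glycerol (0.41). YALI0D20130g fell in DSM-3286 on glycerol in both kinds of comparison (-0.46 with phase and -0.35 with pH) and did not pass in the other 6. At pH 3.5, 0, 2, 2 and 0 of the 6 neighbours rose and 4, 2, 2 and 2 fell, in DSM-3286 on glycerol and glucose and DSM-21175 on glycerol and glucose. Over all genes 31.9, 22.9, 15.3 and 13.4% rose and 34.3, 23.4, 13.4 and 13.9% fell, in the same order. The counts of 6 genes were not tested against those shares. Their roles are not annotated in the files.

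**Figure D3:**
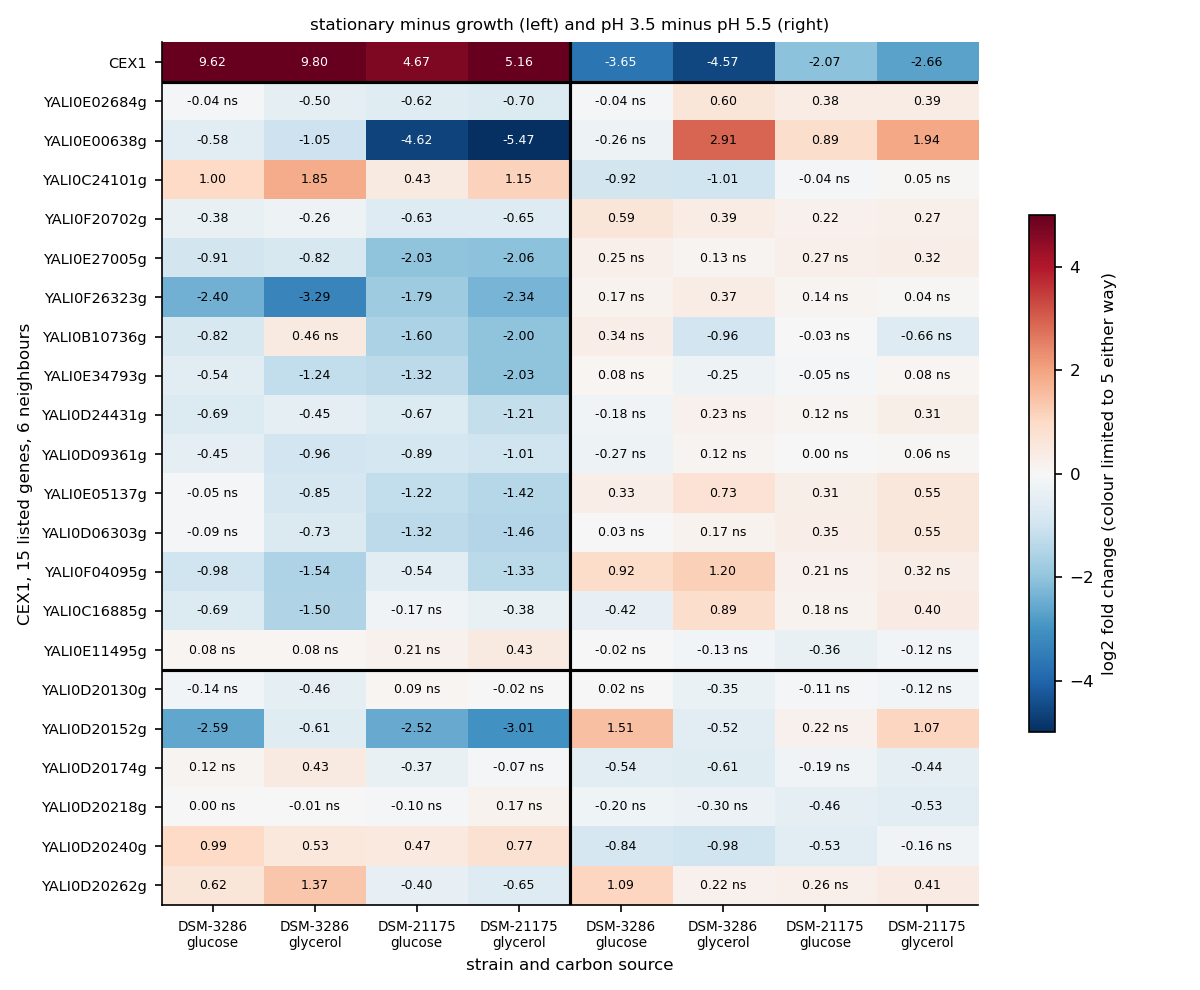
Log2 fold changes of CEX1, 15 listed genes and 6 neighbouring genes (rows) for stationary minus growth phase at pH 5.5 (left 4 columns) and pH 3.5 minus pH 5.5 in stationary phase (right 4 columns), by strain and carbon source. Red is higher and blue lower, colour is limited to 5 either way, and ns marks values that did not pass. In the left columns CEX1 runs from 4.67 to 9.80, and the highest value of any other gene is 1.85, for YALI0C24101g.

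Genes with a profile like that of CEX1 were sought by Pearson r over the 12 group means of log2 CPM, among 5496 coding genes whose means spanned at least 1. Of these, 50 had an r of at least 0.9 and 82 an r of at most -0.9, and the median was 0.01. These r describe groups that share libraries, strains and scaling, and are given without a test. The most alike was YALI0E20713g (r = 0.963), followed by YALI0C24376g (0.958), YALI0D05863g (0.955), YALI0B20834g (0.954), YALI0F13145g (0.953) and YALI0E08206g (0.952). YALI0E20713g was at 143 ± 12.6 and 202 ± 7.51 CPM in growing DSM-3286 on glucose and glycerol, at 615 ± 52.2 (SD, n = 2) and 696 ± 43.1 CPM in stationary phase at pH 5.5, and at 320 ± 32 and 286 ± 5.98 CPM at pH 3.5 (SD, n = 3 elsewhere). In DSM-21175 it was at 104 to 130 CPM in growth phase, 253 and 319 CPM in stationary phase at pH 5.5, and 163 and 256 CPM at pH 3.5, on glucose and glycerol. The 6 genes moved in far smaller steps than CEX1 and not in exactly its order, with Spearman rho from 0.86 to 0.972 and spans of 1.59 to 3.32 on the log2 scale against 10.47 for CEX1.

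The profiles most opposite to CEX1 were those of YALI0F29887g (r = -0.955), YALI0A19822g (-0.954) and YALI0A17358g (-0.951). YALI0F29887g was at 54.9 ± 2.59 and 69.4 ± 3.49 CPM in growing DSM-3286 on glucose and glycerol and at 16.5 ± 0.195 (SD, n = 2) and 20.6 ± 2.74 CPM (SD, n = 3) in stationary phase at pH 5.5. At pH 3.5 it stood between these, at 24.5 ± 2.26 and 26.6 ± 1.98 CPM (SD, n = 3 each). Over the 6 groups of each strain alone, the r of the 6 most alike genes ranked 1 to 110 in DSM-3286 and 43 to 533 in DSM-21175 among the 5496 genes. The files and the RefSeq table give no names or roles for these 9 genes.

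**Figure D4:**
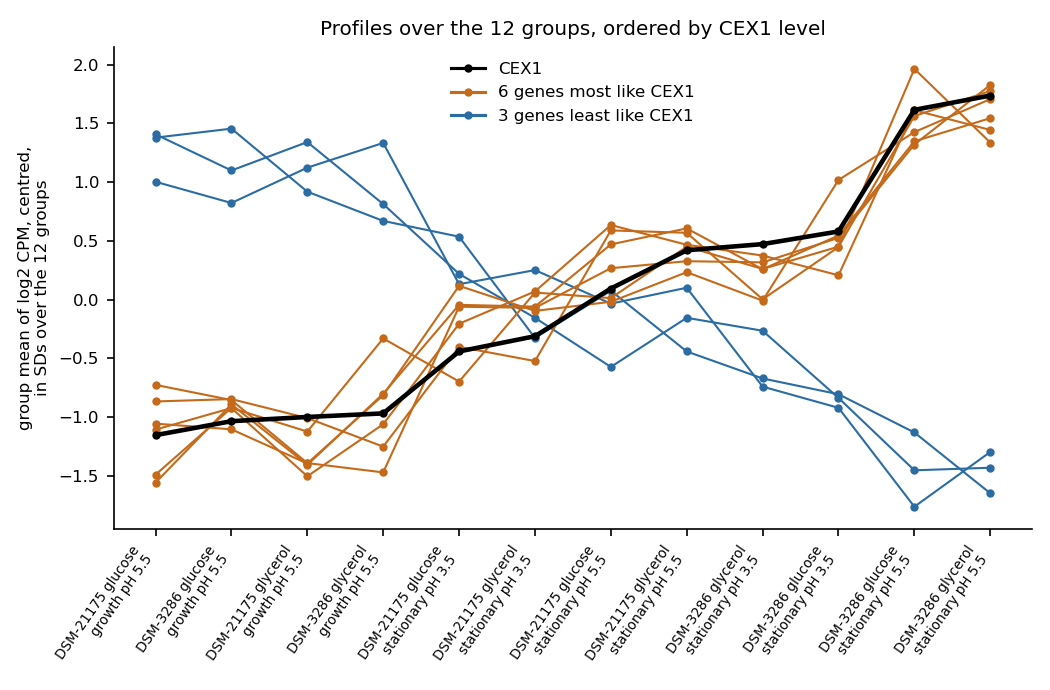
Group means of log2 CPM for CEX1 (black), the 6 genes most like it (orange) and the 3 genes least like it (blue), each centred and divided by its SD over the 12 groups, which are ordered from the lowest to the highest CEX1 level. The scaling hides size: CEX1 spans 10.47 on the log2 scale and the 6 alike genes span 1.59 to 3.32.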

How the data were processed

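The authors deposited raw counts per gene and a table headed log2 FPKM, per the file headers. The submitters' processing notes list 3 tools, BWA 0.7.12-r1039, featureCounts 1.5.1 and edgeR, with no role for each. No source used here gives the genome build or strand setting, so reads shared with overlapping genes were not examined. Libraries were strand-specific and from poly(A) RNA, per the labels' protocols. The deposited log2 values matched log2(FPKM + 1) from the counts and effective lengths within 0.02 in 99.9% of cases. RefSeq's table held 6682 of 7132 gene IDs.

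Counts were fitted in R 4.3.3 with edgeR 4.0.16: filterByExpr by group (6537 genes kept), TMM factors of 0.865 to 1.176, 1 coefficient per group over 35 libraries, robust quasi-likelihood with 23 residual degrees of freedom. The SE is the log2 fold change divided by the square root of F. The code was tested on simulated data. CEX1 and the lists were chosen with earlier results of these data known. Named genes are CEX1, the list of 15 locus tags, 3 neighbours on each side, and the 6 most and 3 least like CEX1. Replicates differed beyond counting noise in all 34 pairs (chi-square of at least 3.37 per gene). A library was said to stand apart where its higher correlation with the other 2 was more than 0.005 below their own. Same-numbered libraries deviated together from their group means, with every pair's r over 0.1, in 2 of 20 comparisons, and may be paired there. Both are in DSM-21175: stationary minus growth on glucose, and glycerol minus glucose in stationary phase at pH 5.5. The labels state no such pairing, and the main fit includes none. In both comparisons replicate 3 stands apart in each group, so this rule cannot tell pairing from odd libraries that share a number. For pH 3.5 minus pH 5.5 in DSM-21175 on glycerol, same-numbered libraries deviated in opposite directions, with r from -0.493 to -0.225. Alternatives used DESeq2 1.42.0 and limma 3.58.1.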

Additional observations from a re-analysis of the deposited data

Results flagged for a closer look

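The change of CEX1 differed between the strains in 5 tests of a difference of changes, each DSM-21175 minus DSM-3286 on the log2 scale. For stationary minus growth phase at pH 5.5 the difference was -4.64 on glycerol and -4.94 on glucose. For pH 3.5 minus pH 5.5 in stationary phase it was 1.91 on glycerol and 1.58 on glucose. For glycerol minus glucose in stationary phase at pH 3.5 it was 0.94 (edgeR, Benjamini-Hochberg adjusted p = 0.0472), and adjusted p ranged from 0.00621 to 0.0728 over the alternatives that keep every group whole or leave out the 5 libraries that stand apart.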

How the results depend on the processing

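Of 35 results for CEX1, 22 were called, and 19 of these kept their sign and call under RLE scaling, no expression filter, the replicate block, DESeq2, limma on the deposited log2 FPKM, a fit restricted to the compared libraries, the fit without the 5 libraries that stand apart, and each library left out. No result was reversed. The strain difference of the carbon effect at pH 3.5 was lost under RLE (0.94), with no filter (0.93), in limma (0.86) and with only the libraries compared (0.96), and ran from 0.64 to 1.22 with 1 library left out. With only the libraries compared, the carbon effect at pH 5.5 was gained in DSM-3286 (0.44) and lost in DSM-21175 (1.05), and the strain difference of the pH effect on glucose was lost (1.61). Without the 5 libraries, the carbon effect at pH 3.5 in DSM-3286 was gained (-0.48), as was the carbon difference of its pH effect (-0.92), also in DESeq2 (-0.95). With 1 library left out these ran from -0.75 to -0.17 and from -1.20 to -0.62. The cause was not tested. With the replicate block no call on CEX1 changed. The block is a replicate effect shared by all 12 groups, so it is not a fit of pairs within a comparison. In the 2 DSM-21175 comparisons whose same-numbered libraries deviated together it gave 4.63 and 1.10. The main values there, 4.67 and 1.06, are from the fit without it.

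Without the 5 libraries the share of genes called moved over 1.5 times for 8 comparisons: the carbon effect in DSM-21175 at pH 5.5 (18.3%) and pH 3.5 (37.5%), its strain differences in growth phase (18%) and at pH 5.5 (29.8%) and pH 3.5 (47.3%), the strain difference of the pH effect on glucose (27.1%), and the carbon difference of the pH effect in DSM-3286 (42.2%) and in DSM-21175 (18%, and 2.02% in DESeq2). Leaving out either DSM-3286 glucose library at pH 5.5 leaves 1, assumed to vary like the other groups. Growth-phase levels rest on 72 to 234 reads a library; the SE of the carbon effect in DSM-3286 was 0.28 there and also in stationary phase at pH 5.5.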

Other observations

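The replicates of DSM-3286 in stationary phase at pH 5.5 agreed in CEX1 more closely than reads counted at random would on average. The coefficient of variation was 0.217% on glycerol (n = 3) and 0.158% on glucose (n = 2), where counting alone gives 0.333 and 0.319%. In the other 10 groups it was between 5.25 and 45.5%. Growing DSM-21175 cells on glucose also fell below counting alone, at 8.84 against 11%. The 2 DSM-3286 groups stand at the highest CEX1 levels and that DSM-21175 group at the lowest, 6.84 CPM. With 2 or 3 libraries in a group the estimate of spread is itself imprecise.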
